A study of Mus musculus with 4 samples.

Results

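The osteoclast genes are 9 genes of the cell that dissolves bone, followed here in mouse bone marrow on 4 Affymetrix arrays, 1 for each of 4 groups. They are Acp5, Ctsk, Calcr, Ocstamp, Dcstamp, Oscar, Atp6v0d2, Tnfrsf11a and Nfatc1, found by symbol in the gene table of the array platform, 9 of the 30702 genes that have a transcript cluster of their own, the probe group in which the platform summarises a transcript. Each had 1 such cluster. The groups were mice treated with Astragalus membranaceus (a root of Chinese medicine), mice treated with electro-acupuncture, mice given the DNA-crosslinking chemotherapy drug cisplatin and control mice. The labels give treatment for 2 weeks before the tibias were taken, with no dose, strain, sex, age or genotype, and it is not stated if cisplatin was also given to the mice that had astragalus or electro-acupuncture. The series text says that 6 marrow samples were mixed, read here as 6 per group, so that each array is a pool and no spread between mice can be had. Marrow was spun out of tibias whose ends had been cut off, and the share of bone-attached cells that came with it is not stated.

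Osteoclasts are giant cells with several nuclei that form when precursors of the monocyte and macrophage lineage fuse. RANK ligand binds the receptor RANK on the precursor and, together with signals through adaptors that carry an activation motif called ITAM, switches on the transcription factor NFATc1, which turns on the genes of fusion and of resorption. The mature cell seals off a patch of bone, pumps acid into it with a vacuolar proton pump (V-ATPase) and digests the collagen with cathepsin K.

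Marrow genes were bright on all 4 arrays, the neutrophil genes S100a8 and S100a9 standing at the arrays' ceiling of 19.93. Of 10 skeletal muscle genes 5 lay under the floor, near the share of all genes, of which 17208 of 30702 were at or above it. Levels are the deposited log2 values, and the floor is 5.235, the median of all 65956 clusters in their mean over the 4 arrays. Array medians lay between 5.15 and 5.31, the lowest in astragalus. A gene at or above the floor entered the counts, which 17208 of 30702 genes and 5 of the 9 osteoclast genes did: Acp5, Ctsk, Oscar, Atp6v0d2 and Nfatc1. The other 4, Calcr, Ocstamp, Dcstamp and Tnfrsf11a, had means under it. With 1 array a group no test was possible, so no p-value or error is given and every difference lacks a replicate check.

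**Figure D1:**
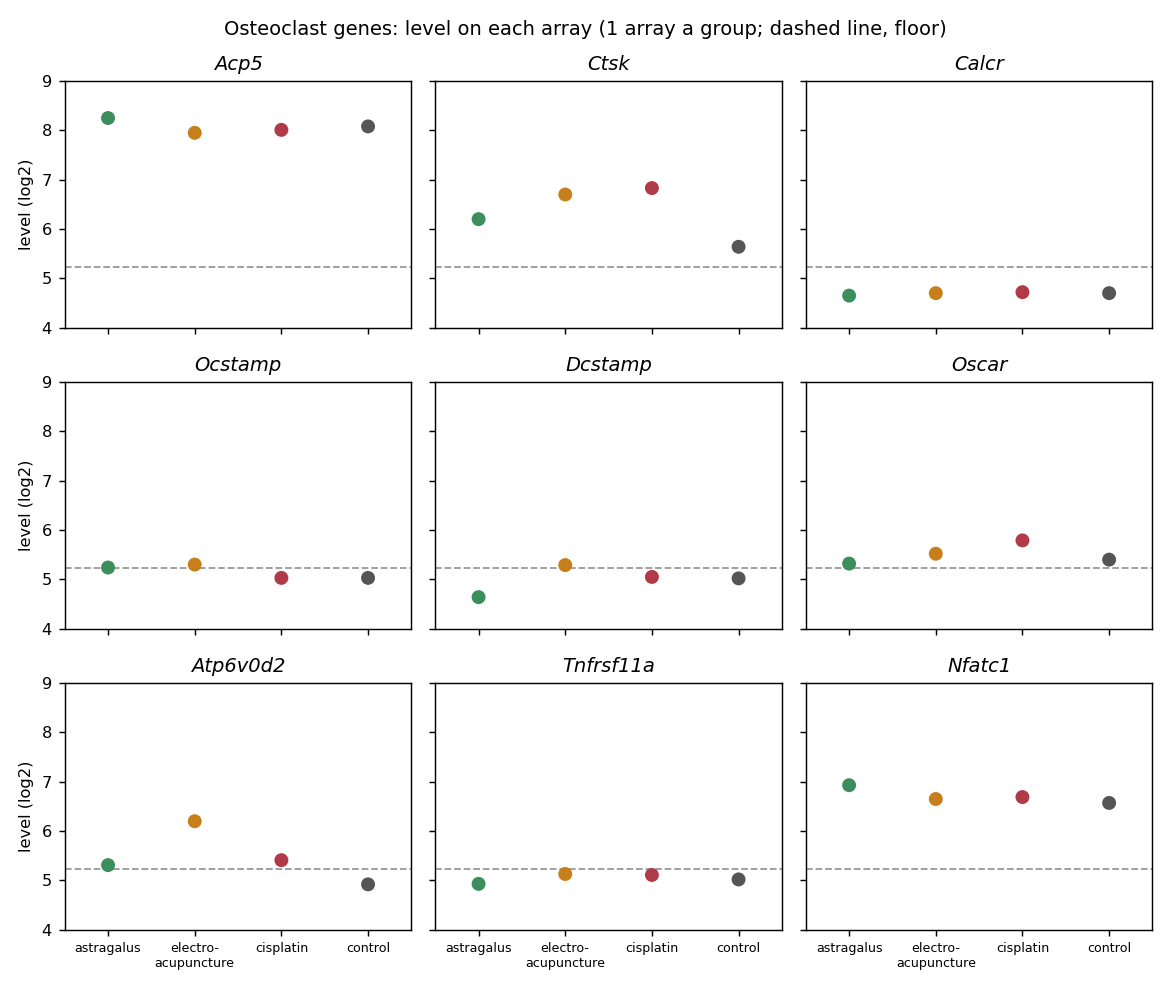
Level (log2) of each of the 9 osteoclast genes on the astragalus, electro-acupuncture, cisplatin and control arrays, with the floor of 5.235 as a dashed line. Ctsk is lowest in control and highest in cisplatin, Atp6v0d2 is highest in electro-acupuncture, and Calcr and Tnfrsf11a stay under the floor on all 4 arrays.

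Ctsk encodes cathepsin K, the protease with which osteoclasts cut type I collagen, and stromal cells of the bone surface also express it. Its level (cluster TC0300000902.mm.1) was 6.20 in astragalus, 6.70 in electro-acupuncture, 6.83 in cisplatin and 5.64 in control. All 3 treated arrays thus stood above control, with cisplatin and electro-acupuncture 0.13 apart and astragalus between them and control. Relative to control, Ctsk was 2.28-fold higher in cisplatin, 2.08-fold higher in electro-acupuncture and 1.47-fold higher in astragalus. Against cisplatin it was 1.55-fold lower in astragalus and 1.09-fold lower in electro-acupuncture. Ctsk was the only osteoclast gene at least 2-fold from control on more than 1 treated array.

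Acp5, the other resorption enzyme, encodes tartrate-resistant acid phosphatase, the classical stain of osteoclasts, which macrophages also make. It stood at 8.25 in astragalus, 7.95 in electro-acupuncture, 8.01 in cisplatin and 8.08 in control (cluster TC0900001900.mm.1). The whole range was 0.30, and the treated arrays lay on either side of control. The difference of 0.17 between astragalus and control turned to -0.02 when the loess trend was removed. In cisplatin, where Ctsk was 1.19 log2 units higher, Acp5 was 0.07 lower.

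The stretches around the start sites of these enzyme genes and of Oscar are shown because these 3 of the 5 genes above the floor had an entry among the RefSeq promoters (build GRCm38.p6), and because they let Ctsk, which differed from control, be read beside Acp5, which stayed within 0.30. Each run reads from 250 bases before the start to 30 bases after it. Capitals mark GGAAA, the core of NFAT sites, or TCATGTG, an E-box of the MITF family, on either strand (on the other strand they read TTTCC and CACATGA). Acp5 has 3 listed starts, and the one with the most matches is printed.
Ctsk, chr3:95498960-95499239, plus strand: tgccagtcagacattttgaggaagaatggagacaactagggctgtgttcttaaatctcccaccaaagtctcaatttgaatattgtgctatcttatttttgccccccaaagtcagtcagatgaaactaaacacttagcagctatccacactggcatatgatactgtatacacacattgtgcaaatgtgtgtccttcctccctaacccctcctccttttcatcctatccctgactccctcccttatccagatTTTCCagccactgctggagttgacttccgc
Acp5, chr9:22130569-22130848, minus strand: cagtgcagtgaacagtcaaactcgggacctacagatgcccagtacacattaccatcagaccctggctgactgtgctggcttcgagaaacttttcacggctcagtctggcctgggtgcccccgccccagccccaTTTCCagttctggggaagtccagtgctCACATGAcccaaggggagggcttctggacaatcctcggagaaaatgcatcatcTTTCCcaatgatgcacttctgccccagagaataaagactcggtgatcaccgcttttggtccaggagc
Oscar, chr7:3616128-3616407, minus strand: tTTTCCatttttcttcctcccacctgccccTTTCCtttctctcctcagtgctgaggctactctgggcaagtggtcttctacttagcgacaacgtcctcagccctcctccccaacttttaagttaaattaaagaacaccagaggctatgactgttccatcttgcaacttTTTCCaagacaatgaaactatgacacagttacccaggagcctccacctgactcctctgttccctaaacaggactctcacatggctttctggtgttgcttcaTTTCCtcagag

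In the windows that were searched, from 250 bases before to 50 bases after the start, Ctsk held 1 GGAAA, at the start itself. The printed Acp5 window, chosen for having the most matches, held 2, while the other Acp5 windows held 1 each, as Ctsk did. Oscar held 4. Of the 8 windows listed for 5 osteoclast genes (Acp5, Calcr, Ctsk, Oscar and Tnfrsf11a), 6 held GGAAA, and 61.3% of all 32851 windows in the table held it too. TCATGTG was in 1 of the 8, the printed Acp5 window at position -90 from the start, and in 3.77% of all windows. TGANTCA (AP-1), GAGGAAGT (PU.1) and CACGTG (a further E-box) were in none of the 8, against 7.81%, 3.20% and 7.15% of all windows. No match overlapped another in the 8 windows. A match is a string of letters and says nothing of binding.

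Atp6v0d2 encodes a membrane subunit of the V-ATPase that is abundant in osteoclasts and needed for the fusion of their precursors, and macrophages express it as well. It was at 5.31 in astragalus, 6.20 in electro-acupuncture, 5.41 in cisplatin and 4.92 in control (cluster TC0400002275.mm.1). Electro-acupuncture stood apart from the other 3 arrays, and the control value lay under the floor, so the size of the differences from control is uncertain. Compared with control, Atp6v0d2 was 2.43-fold higher in electro-acupuncture, 1.40-fold in cisplatin and 1.31-fold in astragalus. Electro-acupuncture was 1.73-fold higher than cisplatin, and astragalus was 1.85-fold lower than electro-acupuncture.

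The fusion proteins themselves were near or under the floor. Dcstamp, the membrane protein through which precursors fuse, was at 4.64 in astragalus, 5.29 in electro-acupuncture, 5.05 in cisplatin and 5.02 in control. Only the electro-acupuncture value passed the floor, so no fold is given. Ocstamp, its partner in fusion, was at 5.24 in astragalus, 5.30 in electro-acupuncture, 5.03 in cisplatin and 5.03 in control. Its range of 0.27 straddled the floor, with cisplatin and control equal.

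Among the receptors, Tnfrsf11a, which encodes RANK, was at 4.93 in astragalus, 5.13 in electro-acupuncture, 5.11 in cisplatin and 5.02 in control, under the floor throughout. Calcr, the receptor for calcitonin, the hormone that halts resorption, was at 4.65 in astragalus, 4.70 in electro-acupuncture, 4.72 in cisplatin and 4.70 in control, a range of 0.07. A difference in either receptor was not detectable at such levels. Oscar, a collagen receptor that signals through the ITAM adaptor FcR gamma, was at 5.32 in astragalus, 5.52 in electro-acupuncture, 5.79 in cisplatin and 5.40 in control. Cisplatin was the highest of the 4, 1.31-fold above control, and astragalus was 1.39-fold and electro-acupuncture 1.21-fold lower than cisplatin.

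Nfatc1, which is also expressed in lymphocytes, was at 6.93 in astragalus, 6.65 in electro-acupuncture, 6.69 in cisplatin and 6.57 in control. Astragalus was the highest, 1.28-fold above control, and the other 3 arrays lay within 0.12 of each other. The order of the groups thus differed from gene to gene. Control was lowest for Ctsk, Atp6v0d2 and Nfatc1, while the highest array was cisplatin for Ctsk and Oscar, electro-acupuncture for Atp6v0d2 and astragalus for Nfatc1.

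Cisplatin was set against control to see how marrow differed after the drug. Of the 5 genes above the floor, 1 (Ctsk) was at least 2-fold higher and none was lower, while among all 17208 genes 2.97% passed that mark, 2.0% upward and 0.965% downward. Of the 2 osteoclast genes at or above the 75th percentile of all clusters, Acp5 and Nfatc1, none differed, against 4.88% of all genes as bright. With 2 genes, a count of none cannot be told from that share. The 5 had a median log2 difference of 0.39, against 0.01 over all genes. With the 4 genes under the floor added the median was 0.09, and 7 of 9 were higher, 4 of those by 0.12 or less. The 5th and the 95th percentile of all genes were -0.55 and 0.70, and of the 9 only Ctsk lay beyond them.

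Electro-acupuncture against control gave 2 of 5 genes at least 2-fold higher, Atp6v0d2 and Ctsk, where 7.26% of all genes differed, 4.15% higher and 3.11% lower. Atp6v0d2 passed the floor by a mean of 5.46 that includes its electro-acupuncture level of 6.20. Every count of Atp6v0d2 in electro-acupuncture is therefore not independent of the filter. Among genes above the 75th percentile it was none of 2, against 12.2%. The median was 0.12, against 0.04 over all genes. Astragalus against control gave none of 5, where 8.8% of all genes differed by that much, 6.13% higher and 2.68% lower. Its median was 0.36, against 0.05 over all genes, and the largest difference was that of Ctsk at 0.56. With 5 or 2 genes, a count of none cannot be told from such shares. These 3 comparisons share the control array, so a low or high control value of a gene enters each of them.

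Set against cisplatin, neither treatment had an osteoclast gene 2-fold different, where 3.92% of all genes were so in astragalus and 3.91% in electro-acupuncture. In astragalus the 5 genes had a median of -0.10, with Ctsk at -0.63, Oscar at -0.47, Atp6v0d2 at -0.10, and Acp5 and Nfatc1 each at 0.24. In electro-acupuncture the median was -0.06, with Atp6v0d2 at 0.79 and the others between -0.27 and -0.04. Between astragalus and electro-acupuncture none of 5 was 2-fold different, against 1.52% of all genes, and the largest difference was that of Atp6v0d2 at -0.89. Counted at 1.5-fold, 1 of the 5 differed in each of these 3 comparisons, Ctsk in astragalus against cisplatin and Atp6v0d2 in the other two, where 14.4%, 11.3% and 9.86% of all genes did. The number of osteoclasts, the RNA per osteoclast and the RNA of other cells that express these genes cannot be told apart in such bulk marrow.

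**Figure D2:**
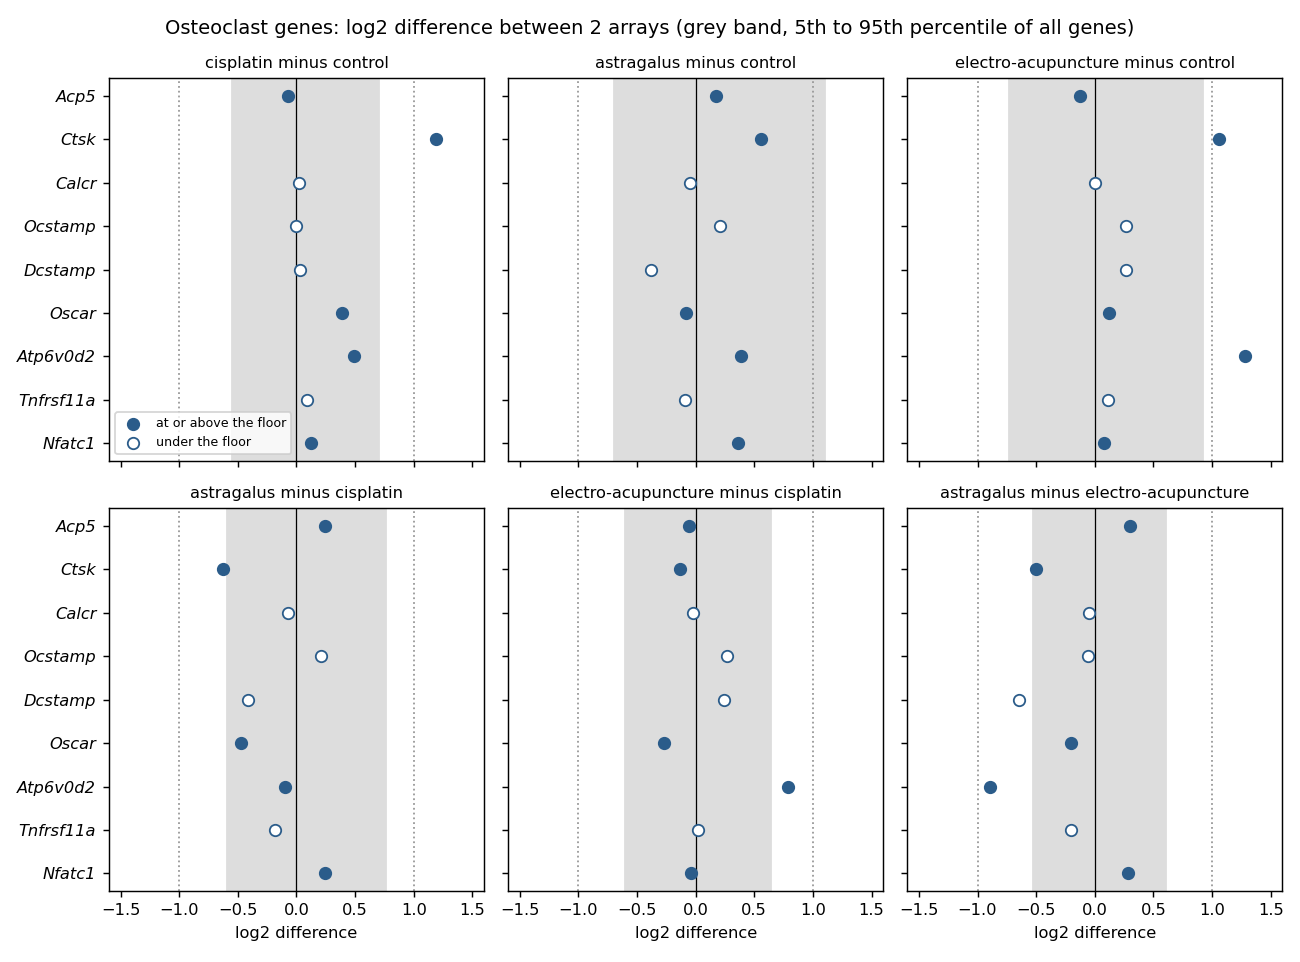
Log2 difference of the 9 osteoclast genes in each of 6 comparisons of 2 arrays. Filled points are genes at or above the floor, open points genes under it, the grey band runs from the 5th to the 95th percentile of all 17208 genes, and dotted lines mark 2-fold. Ctsk passes 2-fold in cisplatin (1.19) and electro-acupuncture (1.06) against control, and Atp6v0d2 in electro-acupuncture against control (1.28).

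RANK ligand and its decoy were under the floor, and the 4 other cytokine and receptor genes that were above it had a median difference from control of 0.44 for astragalus, 0.29 for electro-acupuncture and 0.38 for cisplatin. Tnfsf11, which encodes RANK ligand, was at 5.19 in astragalus, 5.22 in electro-acupuncture, 5.02 in cisplatin and 5.21 in control, and its decoy receptor osteoprotegerin (Tnfrsf11b) was at 4.69 in astragalus, 4.68 in electro-acupuncture, 4.87 in cisplatin and 4.88 in control. Both lay under the floor on every array. Csf1, the growth factor on which precursors depend, was at 5.92 in astragalus, 6.00 in electro-acupuncture, 6.16 in cisplatin and 5.72 in control, and its receptor Csf1r was at 6.26 in astragalus, 6.36 in electro-acupuncture and 6.14 in both cisplatin and control. All 4 genes of that list above the floor were higher in astragalus and in electro-acupuncture than in control. Of all genes above the floor 55.3% and 53.7% were. Over all 8 measured genes of the list, 5 were higher in astragalus and 7 in electro-acupuncture, with medians of 0.12 and 0.25. None of the 4 differed 2-fold between cisplatin and control, where 2.97% of all genes did. Il1r1, the interleukin 1 receptor, was 2.39-fold higher in astragalus and 2.13-fold higher in electro-acupuncture than in control, and no other gene of the 4 reached 2-fold. Of all genes 6.13% in astragalus and 4.15% in electro-acupuncture were higher by at least 2-fold.

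Signalling genes behind RANK and the ITAM adaptors differed in both directions. Traf6, the adaptor that RANK binds, was at 7.18 in astragalus, 6.98 in electro-acupuncture, 6.32 in cisplatin and 7.17 in control, so that cisplatin was 1.80-fold below control. Of 15 genes, 1 was at least 2-fold lower in cisplatin than in control (0.965% of all genes were) and none was higher (2.0%). That gene was Blnk, an adaptor also central to B cells, at 2.55-fold lower. It was 2.16-fold lower in astragalus and 2.46-fold lower in electro-acupuncture. B cell genes were lower as well, with a mean level over 10 genes of 7.77 in astragalus, 7.80 in electro-acupuncture, 7.49 in cisplatin and 8.47 in control, and their part in the Blnk difference was not tested. The ITAM adaptor gene Tyrobp, known also from neutrophils and natural killer cells, was 2.17-fold and the kinase gene Syk 2.14-fold different from control in electro-acupuncture, Tyrobp higher and Syk lower. The other ITAM adaptor gene, Fcer1g, was 2.13-fold higher in astragalus. With quantile normalization or with the loess trend removed, Tyrobp and Fcer1g were just under 2-fold against control.

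Where 2.0% of all genes were at least 2-fold higher in cisplatin than in control, 1 of 12 transcription factor genes above the floor was. This was Fos, an AP-1 subunit that osteoclast precursors need and that many cells switch on under stress. Fos was at 5.58 in astragalus, 6.23 in electro-acupuncture, 8.95 in cisplatin and 6.43 in control, standing apart in cisplatin alone. It was 5.74-fold higher in cisplatin than in control. Against control the list's median was 0.02 for cisplatin, -0.12 for astragalus and -0.02 for electro-acupuncture. No gene among the 8 repressors of osteoclast formation was 2-fold different from control on any array as deposited. Of all genes 8.8% in astragalus, 7.26% in electro-acupuncture and 2.97% in cisplatin were, and with 8 genes a count of none cannot be told from such shares. With the loess trend removed Lilrb4a, an inhibitory receptor, was 2-fold lower in electro-acupuncture (-0.81 as deposited). Irf8, which holds precursors back, was at 7.03 in astragalus, 6.65 in electro-acupuncture, 6.90 in cisplatin and 7.37 in control, highest in control.

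Genes of the resorbing machinery were mostly within 2-fold. Tcirg1, the pump subunit that carries most acid secretion in osteoclasts, was at 7.85 in astragalus, 7.75 in electro-acupuncture, 8.02 in cisplatin and 8.12 in control. Clcn7, the chloride exchanger that balances the charge, was at 6.19 in astragalus, 6.03 in electro-acupuncture, 6.07 in cisplatin and 6.24 in control. Both genes were highest in control, where Ctsk was lowest. Mmp9, a gelatinase that neutrophils also hold, was at 8.72 in astragalus, 8.18 in electro-acupuncture, 8.36 in cisplatin and 8.09 in control. Car2, the carbonic anhydrase that supplies protons and is abundant in red cell precursors, was 1.40-fold higher in astragalus, 1.03-fold higher in electro-acupuncture and 1.29-fold lower in cisplatin than in control. Its log2 difference from control was 0.49 in astragalus and 0.04 in electro-acupuncture, and these became 0.12 and -0.20 after quantile normalization and -0.05 and -0.21 with the loess trend removed.

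In that acid secretion and resorption list none of 15 genes was 2-fold different from control in cisplatin, where 2.97% of all genes were. At least 2-fold higher than in control were 4 in astragalus (6.13% of all genes, 10.9% of those above the 75th percentile). In electro-acupuncture there were 2 (4.15% of all genes, 7.13% of those above the 75th percentile). The genes higher in astragalus were Ctsl (2.81-fold), Ctsb (2.35-fold), Rab7 (2.11-fold) and Cst3 (2.10-fold), and in electro-acupuncture they were Ctsl (3.01-fold) and Cst3 (2.45-fold). Ctsl and Ctsb are lysosomal cathepsins, Rab7 is a guanosine triphosphatase of late endosomes and Cst3, cystatin C, inhibits cathepsins, and none of these is peculiar to osteoclasts. The astragalus count of 4 was 2 after quantile normalization and 1 with the loess trend removed, and the electro-acupuncture count was 3 and 2 under those settings. In cisplatin Ctsl reached 2-fold after quantile normalization (1.02, against 0.97 as deposited). The 16 genes of V-ATPase subunits and their accessory proteins had a median difference from control of 0.11 for cisplatin, 0.28 for astragalus and 0.15 for electro-acupuncture, and the astragalus value was 0.12 after quantile normalization and 0.07 with the loess trend removed. A single subunit gene of the 16, Atp6v0e, was at least 2-fold higher, by 2.53-fold in astragalus, 3.23-fold in electro-acupuncture and 2.20-fold in cisplatin. Of all genes 6.13%, 4.15% and 2.0% were higher by that much on these arrays. Atp6v0d1, the widely expressed counterpart of Atp6v0d2, was at 8.76 in astragalus, 8.60 in electro-acupuncture, 8.11 in cisplatin and 8.03 in control. Astragalus minus electro-acupuncture was 0.16 for it as deposited, -0.03 after quantile normalization and -0.06 with the loess trend removed.

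Fusion and adhesion genes included the integrin gene Itgb3, the beta chain of a receptor with which osteoclasts grip bone and also the main platelet integrin. Itgb3 was at 12.37 in astragalus, 12.41 in electro-acupuncture, 12.38 in cisplatin and 10.50 in control. The treated arrays lay within 0.04 of each other, 3.66-fold (astragalus), 3.76-fold (electro-acupuncture) and 3.68-fold (cisplatin) above control. It was 1 of 11 genes at least 2-fold higher in cisplatin, where 2.0% of all genes were. With the tetraspanin gene Cd81 it made 2 of 11 in astragalus (6.13% of all genes) and electro-acupuncture (4.15%). On both arrays Cd81 fell short of 2-fold once the loess trend was removed. The list's median in astragalus against control was 0.54 as deposited, 0.16 after quantile normalization and 0.09 with the loess trend removed. All 10 megakaryocyte and platelet genes, Itgb3 among them, were higher on each treated array, with a median difference of 1.64 for astragalus, 1.68 for electro-acupuncture and 1.56 for cisplatin, and their part in the Itgb3 difference was not tested. Coupling factors, by which osteoclasts call in osteoblasts, had 5 of 9 genes above the floor, none 2-fold different from control. Of all genes 8.8% in astragalus, 7.26% in electro-acupuncture and 2.97% in cisplatin differed by that much.

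**Figure D3:**
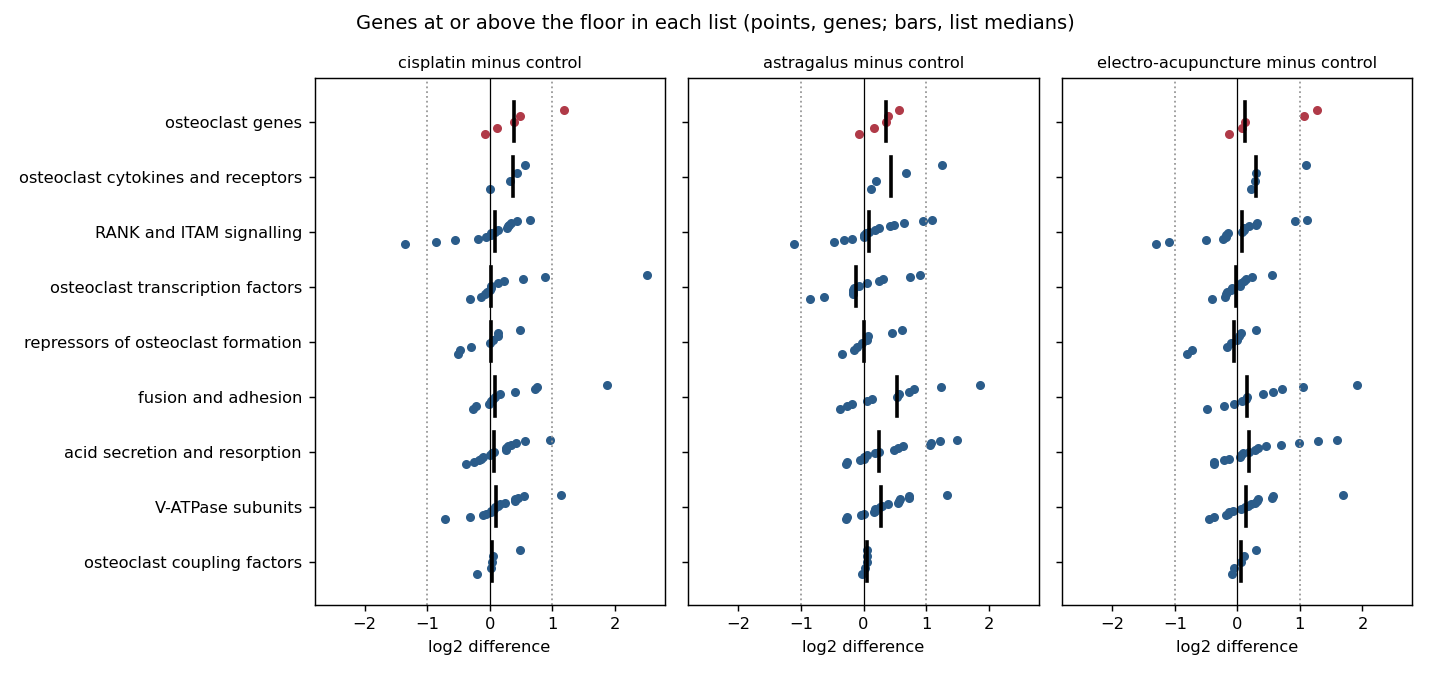
Log2 difference from control on the cisplatin, astragalus and electro-acupuncture arrays for genes at or above the floor in the osteoclast set (red) and 8 lists of the pathway (blue), with list medians as black bars. The medians of the 8 lists lie between -0.12 and 0.54, and the points beyond the dotted 2-fold lines are single genes such as Fos in cisplatin and Itgb3 on all 3 treated arrays.

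Some marker lists of other cells had their highest or lowest array in common with Ctsk or Atp6v0d2. Bone matrix and osteoblast genes, cells that share the bone surface with osteoclasts, had a mean level over 10 genes of 8.14 in astragalus, 7.77 in electro-acupuncture, 8.87 in cisplatin and 7.06 in control. Of the 10, 5 were at least 2-fold higher in cisplatin than in control, against 2.0% of all genes. The 10 had a median difference of 1.46, led by the osteocalcin genes Bglap2 (49.2-fold) and Bglap (26.4-fold). Omd (-0.33), Mepe (-0.18) and Sp7 (-0.13) were lower, and 7 of the 10 were higher. Over all 13 measured genes of the list the median was 0.30. Marrow fat cell genes had a mean level over 8 genes of 7.79 in astragalus, 7.65 in electro-acupuncture, 8.07 in cisplatin and 6.90 in control. By these means both lists were highest in cisplatin and lowest in control, as Ctsk was. Between these, both means were higher in astragalus than in electro-acupuncture, whereas Ctsk was higher in electro-acupuncture (6.70) than in astragalus (6.20). Other list means were lowest in control too, among them the macrophage (7.88), platelet (10.54) and neutrophil (13.26) means. The coupling factor mean was likewise highest in cisplatin (5.98) and lowest in control (5.90). The median level of the fat cell genes was 7.66 in astragalus, 7.87 in electro-acupuncture, 7.76 in cisplatin and 6.36 in control, highest in electro-acupuncture. The platelet genes were higher than in control by like amounts on the treated arrays, with a mean level of 12.19 in astragalus, 12.23 in electro-acupuncture, 12.19 in cisplatin and 10.54 in control. The part of the bone matrix, fat cell and platelet lists in the Ctsk difference was not tested.

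Macrophage and monocyte genes had a mean level over 19 genes of 8.14 in astragalus, 8.44 in electro-acupuncture, 8.12 in cisplatin and 7.88 in control, highest in electro-acupuncture as Atp6v0d2 was. In electro-acupuncture 5 of 19 were at least 2-fold higher than in control, against 4.15% of all genes. They were led by Hmox1 (heme oxygenase, 3.27-fold) and Vcam1 (an adhesion molecule that stromal cells also carry, 2.95-fold). C1qb was among them, at 6.25 in electro-acupuncture but under the floor in astragalus (4.98), cisplatin (5.18) and control (5.13). It passed the floor only through its electro-acupuncture level, so the count is not independent of the filter. Hmox1 was also 2.20-fold higher in cisplatin, and Vcam1 2.33-fold in cisplatin and 2.48-fold in astragalus. In electro-acupuncture 17 of the 19 were higher and 2 lower, Itgam (-0.77) and Ly6c2 (-0.30). The part of macrophages in the Atp6v0d2 difference was not tested. Of the osteoclast genes themselves, Acp5, Ctsk, Oscar and Nfatc1 were above the floor on all 4 arrays, and Calcr and Tnfrsf11a were under it on all 4.

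**Figure D4:**
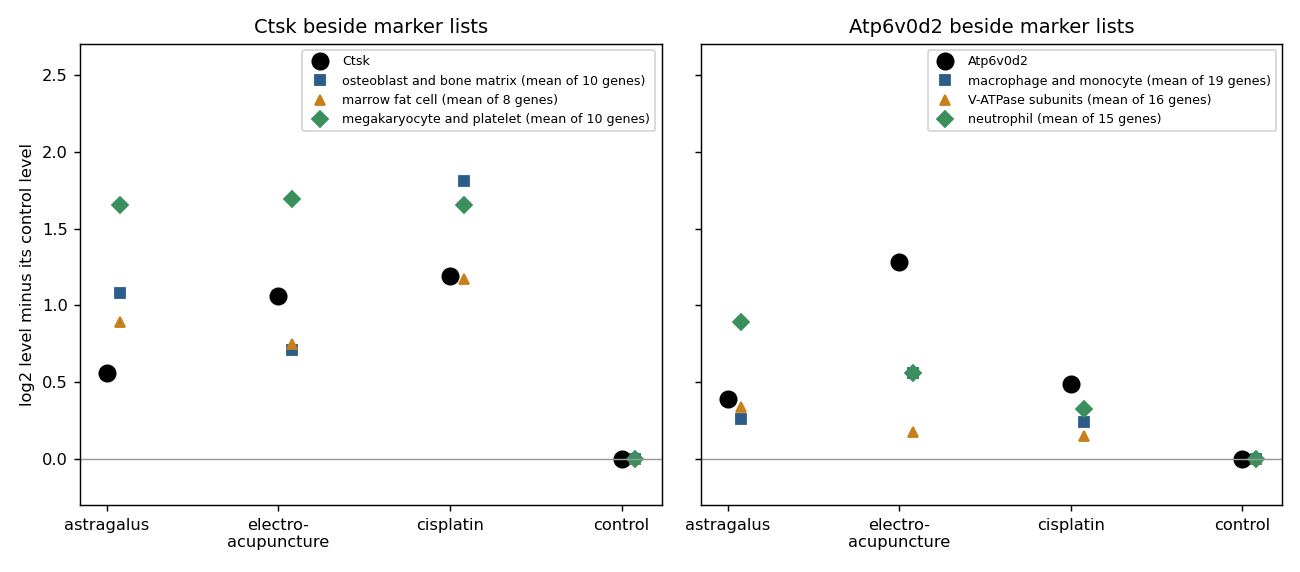
Log2 level minus the control level on each array for Ctsk (left) and Atp6v0d2 (right), as black circles, beside the mean of the genes above the floor in 3 lists each, bone matrix, fat cell and platelet genes for Ctsk and macrophage, V-ATPase and neutrophil genes for Atp6v0d2. Ctsk and the means of the bone matrix and fat cell lists are highest in cisplatin (the fat cell median is highest in electro-acupuncture), and Atp6v0d2 and the macrophage list are highest in electro-acupuncture.

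The genes whose pattern over the 4 arrays came closest were sought for Atp6v0d2 and Ctsk, the only genes of the set above the floor with a range of at least 1. Likeness was the Euclidean distance between log2 levels after each gene's own mean was subtracted, over 11224 other protein-coding genes. Closest to Ctsk were Sema6d (distance 0.185), P2rx1 (0.242) and Cenpw (0.268). Sema6d, a semaphorin, was at 7.12 in astragalus, 7.51 in electro-acupuncture, 7.49 in cisplatin and 6.44 in control, and P2rx1, an ATP-gated channel of platelets and other cells, was at 7.78 in astragalus, 7.98 in electro-acupuncture, 8.16 in cisplatin and 6.94 in control. Closest to Atp6v0d2 were the olfactory receptor genes Olfr998 (0.185) and Olfr1219 (0.241) and the defensin gene Defb39 (0.262). Olfr998 was at 5.92 in astragalus, 6.58 in electro-acupuncture, 5.96 in cisplatin and 5.52 in control. Over 4 points many genes come close to any pattern, and these names describe the arrays only.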

How the data were processed

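Levels in mouse marrow on 4 arrays, 1 per group, are the deposited log2 values, made by the authors with Affymetrix Expression Console per the submitters' processing notes. The sources used here give neither its version nor its summary method or normalization. The log2 scale was inferred from a range of 2.70 to 19.93. RNA was extracted with Trizol and 6 ug labelled with biotin, per the labels' protocols.

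Of 65956 clusters, 32750 were in the platform's gene table, 31258 with 1 gene and 1492 with several, which were not used. Symbols were updated with RefSeq (GRCm38.p6). For 441 genes with several clusters the brightest was taken. Comparisons are differences between arrays, counted at 1 log2 unit (2-fold). Precision is limited by the number of arrays. Levels of different probes were set against the same floor and averaged in the list means, with no correction between probes.

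The set and all lists were chosen with earlier results of these data known. Named were the 9 genes, a chosen set of pathway genes, up to 4 per pathway list and 2 per marker list by size, and the 3 nearest patterns. Alternatives were quantile normalization, loess, centring, cluster means, other filters and 1.5-fold. Scripts were tested on simulated data (Python 3.11.15, pandas 2.3.3, numpy 2.4.6, statsmodels 0.14.6).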

Additional observations from a re-analysis of the deposited data

How the results depend on the processing

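No paired analysis was possible because each group has 1 array, and for the same reason no array could be left out. Each of the 9 genes was recomputed in 6 comparisons under quantile normalization, loess and centring, 162 values in all. The mean of clusters could not change a gene with 1 cluster. None crossed 2-fold and the largest shift was 0.19. Signs turned for 8 of the 54 differences, all at 0.17 or less in size. Against control, Ctsk ranged from 1.18 to 1.24 in cisplatin and from 1.02 to 1.08 in electro-acupuncture, and Atp6v0d2 from 1.23 to 1.29 in electro-acupuncture. Counts and medians depended on which genes entered. With the filter at the 75th percentile of 6.63 only Acp5 and Nfatc1 stayed, so that the counts against control were 0 in cisplatin and 0 in electro-acupuncture, with medians of 0.02 and -0.03, and the medians were 0.24 for astragalus minus cisplatin and 0.29 for astragalus minus electro-acupuncture. With no filter the medians were 0.09 (cisplatin minus control) and 0.17 (astragalus minus control). The median of astragalus minus electro-acupuncture was -0.05 with quantile normalization and -0.07 with loess, against -0.20 as deposited, and the cause was not tested. Counted at 1.5-fold, 1 gene each differed in astragalus minus cisplatin, electro-acupuncture minus cisplatin and astragalus minus electro-acupuncture, where 14.4%, 11.3% and 9.86% of all genes did.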

Other observations

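Other blood lineages of the marrow differed between the arrays too, by lists of marker genes above the floor. Of 15 neutrophil genes, 7 were at least 2-fold higher in astragalus, 5 in electro-acupuncture and 3 in cisplatin than in control, with medians of 0.69, 0.09 and 0.16. Of all genes 6.13%, 4.15% and 2.0% were higher by that much. Those in electro-acupuncture were Mpo, Elane, Prtn3, Ctsg and Ms4a3, and those in cisplatin Mpo, Ctsg and Ms4a3. In electro-acupuncture 9 of the 15 were higher, 1 was lower and 5 were equal. S100a8 and S100a9, at the ceiling, could show no difference but enter the medians. Of 10 B cell genes, 4 were at least 2-fold lower in astragalus, 5 in electro-acupuncture and 5 in cisplatin than in control, with medians of -0.74, -0.99 and -0.94. Of all genes 2.68%, 3.11% and 0.965% were lower by that much. Red cell genes (10) had a median of 0.51 in astragalus, 0.11 in electro-acupuncture and -0.24 in cisplatin against control. For electro-acupuncture it turned to -0.15 after quantile normalization and -0.13 with the loess trend removed, and for astragalus it was 0.24 and 0.06. The 7 T and NK cell genes had medians of 0.05, 0.07 and 0.02 and the 5 skeletal muscle genes 0.09, 0.22 and 0.01 in astragalus, electro-acupuncture and cisplatin against control, with none 2-fold different. Of all genes 8.8%, 7.26% and 2.97% differed by that much. With quantile normalization or the loess trend removed, the neutrophil count in astragalus was 6. These counts have no replicate check.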
